A study of Mus musculus with 6 samples.

Results

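A group of 9 genes of deoxynucleotide synthesis were followed in MC3T3-E1 cells, a mouse pre-osteoblast line from calvaria of the C57BL/6 strain, by RNA sequencing: Rrm1, Rrm2, Tyms, Dut, Dtymk, Tk1, Dck, Cad and Umps. They were chosen by name, with earlier results of these data known. All 9 were found in the gene column of the deposited count table, among its 23358 rows, and passed the filter on low counts. Confluent cultures had received 1 µM of NU7441, a compound that blocks the kinase DNA-PK of DNA break repair, or only the solvent DMSO, and both treatments lasted 16 h. Each group had 3 samples, 6 in all, and the comparison asks which transcripts differ between NU7441 and DMSO. With 1 compound at 1 dose, inhibition of DNA-PK cannot be told apart from any other effect of NU7441. The line is clonal, and by the submitters' design text RNA from triplicates of independent experiments was pooled before sequencing, which means that the p-values reflect only differences between those pools, which may be technical. NU7441 acts on the protein, so no transcript level tests whether the kinase was inhibited.

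Deoxynucleotides are the building blocks of DNA and are made mainly when a cell prepares to copy its genome. Ribonucleotide reductase converts ribonucleotides to deoxyribonucleotides, and its small subunit Rrm2 is made and destroyed with the cell cycle while its large subunit Rrm1 is more stable. Thymidylate, the nucleotide that carries thymine, the base that DNA has and RNA lacks, is made from deoxyuridine monophosphate by thymidylate synthase or taken up as thymidine and phosphorylated by thymidine kinase. Several of these genes are textbook targets of E2F transcription factors at the start of S phase.

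The libraries held between 47312968 and 71292628 gene counts, all of them even, as if each read pair had been counted as 2. Counts of the 9 genes together made up 0.0691% to 0.0696% of the total in the DMSO samples and 0.0461% to 0.0473% in the NU7441 samples. The 10 listed osteoblast markers summed to between 49380 and 52610 CPM (counts per 1000000 counts, on scaled library sizes). Most of that sum came from the collagen genes Col1a1 and Col1a2 (means of 18584 and 22271 CPM in DMSO). Alpl and Ibsp were far lower (39.9 and 13.1 CPM in DMSO), and Bglap, the osteocalcin gene of mature osteoblasts, was near 0. In the test described below, 2 of the 9 tested markers, Alpl and Ibsp, were called lower in NU7441 and 3 were called higher. The 4 endothelial markers summed to at most 0.551 CPM, the 5 muscle markers to at most 1.69 and the 4 epithelial markers to at most 1.98. The adipocyte, chondrocyte and macrophage lists reached 23.9, 93.7 and 118 CPM, mostly through Cebpa, Sox9 and Ctsk. By edgeR's quasi-likelihood model, 2290 (16.6%) of 13784 tested genes were lower and 1941 (14.1%) higher in NU7441 at a Benjamini-Hochberg adjusted p of 0.05, together 30.7%, and 45.9% of the calls were higher, against 56.5% with upper-quartile scaling and 37.7% with library size only.

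All 9 transcripts were called lower in NU7441, against a background of 16.6% of tested genes called lower and 30.7% called in either direction. Because the 9 were chosen with earlier results of these data known, this contrast is a description and not a test. For each of the 9 the lowest DMSO sample lay above the highest NU7441 sample, a separation of the groups in either direction that was met by 42.8% of all tested genes. The size of the fall was uneven. Tk1, Rrm2 and Tyms, 3 of the 9, were lower by at least 2-fold, as were 1.36% of tested genes, whereas Rrm1 and Cad fell by 21.7% and 21.9%. Tyms was only just past 2-fold (log2 fold change -1.02) and came short of it with upper-quartile scaling, without DMSO replicate 1 and without NU7441 replicate 3 (-0.98), which left 2 of the 9. The median log2 fold change was -0.59, where the median of all tested genes was 0.01. These are bulk samples, in which fewer cells in S phase and less RNA of these genes per cell cannot be told apart.

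**Figure D1:**
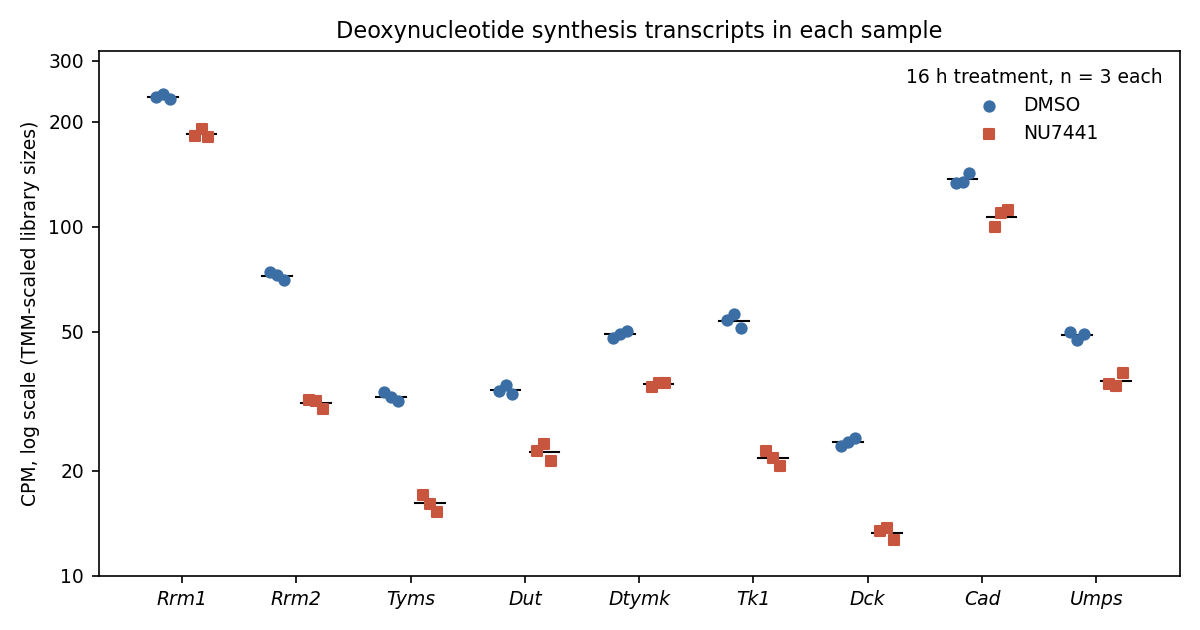
Level of each transcript in each sample, as CPM on a log axis, with DMSO as circles, NU7441 as squares and a bar at the mean of 3 samples. In every transcript the 3 NU7441 samples lie below the 3 DMSO samples, with the widest gap for Tk1 and the narrowest for Rrm1 and Cad.

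The 2 subunits of ribonucleotide reductase fell to different degrees. Rrm1 (mm10 chromosome 7, 102441695 to 102469771, plus strand), the large subunit that carries the catalytic and regulatory sites, stood at 236, 240.5 and 233 CPM in the DMSO samples and at 183, 191 and 182 CPM in the NU7441 samples. Samples within each group were close together, and the mean went from 237 ± 3.72 to 185 ± 5.36 CPM (SD, n = 3). The fall of 21.7% was a log2 fold change of -0.35 ± 0.03 (± SE, as for all fold changes; edgeR's adjusted p = 7e-07). Rrm2 (mm10 chromosome 12, 24708254 to 24714146, plus strand), the small subunit that holds the tyrosyl radical, read 74.2, 72.8 and 70.5 CPM in DMSO and 31.8, 31.8 and 30.0 CPM in NU7441. Every DMSO sample was thus more than 2 times any NU7441 sample, with a log2 fold change of -1.22 ± 0.04 (edgeR's adjusted p = 8e-11) and a fall of 57.0%. Rrm2b, the p53-inducible small subunit that serves DNA repair and resting cells, went the other way. It read 12.2, 11.2 and 12.04 CPM in DMSO and 14.0, 13.7 and 14.7 CPM in NU7441, groups that did not overlap, and rose by 0.26 ± 0.06 on the log2 scale (edgeR's adjusted p = 0.0056).

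Ratios taken within a sample do not depend on the scaling between samples, and they moved in the same way. Per base of gene length, Rrm2 counts were 0.577, 0.555 and 0.555 times the Rrm1 counts in the DMSO samples and 0.319, 0.304 and 0.302 times in the NU7441 samples. The log2 ratio fell by 0.87 (0.85 to 0.89 leaving out each sample). The ratio of Rrm2 to Rrm2b per base was 12.7 ± 0.635 in DMSO and 4.57 ± 0.302 in NU7441 (SD, n = 3), a log2 difference of -1.48. In both ratios the groups did not overlap (exact permutation test, two-sided p = 0.1 for each, adjusted p = 0.15 over 6 ratios, n = 3 per group), and with 3 against 3 samples p cannot go below 0.1.

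The promoters of both subunits are shown with those of Dtymk and Tyms, since these 4 of the 9 held a match to the CCAAT word of NF-Y or to the E-box word in the RefSeq window (250 bases before to 50 after the start, GRCm38.p6), in which all 9 were found. Each run is the 250 bases before the annotated start, 5′ to 3′ on the gene's own strand, with matches on either strand in capitals. Rrm1 spans chr7:102441445-102441694 (plus strand), Rrm2 chr12:24708004-24708253 (plus), Dtymk chr1:93801935-93802184 (minus) and Tyms chr5:30073626-30073875 (minus).
Rrm1: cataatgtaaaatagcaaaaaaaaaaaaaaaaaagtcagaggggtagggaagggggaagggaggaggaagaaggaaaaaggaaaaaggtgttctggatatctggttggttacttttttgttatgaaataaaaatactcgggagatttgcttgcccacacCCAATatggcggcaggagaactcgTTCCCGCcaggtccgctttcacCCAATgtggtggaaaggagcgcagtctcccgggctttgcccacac
Rrm2: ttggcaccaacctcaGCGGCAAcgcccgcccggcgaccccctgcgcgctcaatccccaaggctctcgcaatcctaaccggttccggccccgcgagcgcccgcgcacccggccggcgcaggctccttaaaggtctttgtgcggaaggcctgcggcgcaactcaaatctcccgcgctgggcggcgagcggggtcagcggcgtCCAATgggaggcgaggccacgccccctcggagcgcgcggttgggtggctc
Dtymk: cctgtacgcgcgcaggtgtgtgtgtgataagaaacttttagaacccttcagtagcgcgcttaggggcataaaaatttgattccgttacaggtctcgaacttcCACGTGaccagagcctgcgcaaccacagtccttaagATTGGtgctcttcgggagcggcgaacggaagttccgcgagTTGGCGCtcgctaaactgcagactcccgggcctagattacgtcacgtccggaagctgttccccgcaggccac
Tyms: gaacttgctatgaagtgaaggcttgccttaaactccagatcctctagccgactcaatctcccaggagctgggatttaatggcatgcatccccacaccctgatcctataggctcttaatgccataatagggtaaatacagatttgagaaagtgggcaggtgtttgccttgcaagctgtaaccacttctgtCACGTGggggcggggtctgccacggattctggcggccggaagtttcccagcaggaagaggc

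The CCAAT word was found 2 times in Rrm1, starting 91 and 45 bases before the start, and 1 time each in Rrm2 (50 bases before) and, on the opposite strand, in Dtymk. That is 3 of the 9 windows, against 37.4% of 32851 RefSeq windows. The 8-letter E2F words TTTCCCGC, TTTCGCGC, TTTGCCGC and TTTGGCGC were in 0 of the 9 windows and in 2.26% of all windows. The same words without their first T, a search added after the longer words gave no match, were in 4 of 9 windows and in 9.57% of all: TTCCCGC in Rrm1, TTGCCGC in Cad and, on the opposite strand, in Rrm2, and TTGGCGC in Dtymk. The E-box word CACGTG was in Tyms and Dtymk (7.15% of all windows), and TTTGAA, the CHR word of late cell cycle genes, in Dck and Umps (17.9% of all). No match overlapped a match to another of these words, apart from the longer and shorter E2F words, which overlap by design. The Tk1 window held a match to none of the words searched. Neither did that of Dut, but RefSeq places this window at 125247265 to 125247564 on chromosome 2, wholly inside the Dut row of the deposited table, which begins at 125247248, so it does not cover the bases before that start.

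Among Dut, Tyms and Dtymk, the synthase gene Tyms fell most. Tyms (mm10 chromosome 5, 30058200 to 30073625, minus strand) encodes thymidylate synthase, which methylates deoxyuridine monophosphate. It read 33.6, 32.6 and 31.7 CPM in DMSO and 17.03, 16.1 and 15.2 CPM in NU7441, so the groups lay far apart, and the fall was 50.6%. The log2 fold change was -1.02 ± 0.05 (edgeR's adjusted p = 1.1e-09). A pseudogene of the same family, Tyms-ps, had 4 to 14 counts per sample, against 794 to 2276 for Tyms.

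Dut and Dtymk, which act before and after the synthase, fell less. Dut (mm10 chromosome 2, 125247248 to 125259049, plus strand) encodes the dUTPase that supplies deoxyuridine monophosphate and keeps uracil out of DNA. Its samples read 33.8, 35.3 and 33.1 CPM in DMSO and 22.8, 23.9 and 21.3 CPM in NU7441, a log2 fold change of -0.59 ± 0.05 (edgeR's adjusted p = 2e-07). Dtymk (mm10 chromosome 1, 93792576 to 93801934, minus strand) encodes thymidylate kinase, through which thymidylate from either route passes on its way to thymidine triphosphate. It read 48.1, 49.3 and 50.3 CPM in DMSO and 34.8, 35.6 and 35.7 CPM in NU7441, the tightest treated group of the 9, with a log2 fold change of -0.48 ± 0.03 (edgeR's adjusted p = 7.6e-08).

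Within samples, Dtymk gained on Tyms. Per base of gene length the ratio of Dtymk to Tyms was 4.39 ± 0.228 in DMSO and 6.40 ± 0.437 in NU7441 (SD, n = 3), with no overlap (log2 difference 0.54, exact permutation test, two-sided p = 0.1, adjusted p = 0.15).

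The salvage kinases of the cytosol fell steeply and their mitochondrial counterparts were not called. Tk1 (mm10 chromosome 11, 117815519 to 117826014, minus strand), the thymidine kinase of dividing cells, read 54.2, 56.3 and 51.2 CPM in DMSO and 22.8, 21.8 and 20.6 CPM in NU7441. It had the largest fall of the 9, a log2 fold change of -1.31 ± 0.05 (edgeR's adjusted p = 1.7e-10) or 59.6%, the rank 89 from the lowest among 13784 tested genes. Tk1 shares 96 bases of its row with Afmid on the opposite strand, and the sources used here do not give the strand setting of the counting. Afmid had 318 to 486 counts in all samples, against 1076 to 3676 for Tk1. Dck (mm10 chromosome 5, 88765013 to 88783277, plus strand), the deoxycytidine kinase that also phosphorylates deoxyadenosine and deoxyguanosine, read 23.5, 24.2 and 24.7 CPM in DMSO and 13.4, 13.7 and 12.6 CPM in NU7441. Its log2 fold change was -0.87 ± 0.05 (edgeR's adjusted p = 1.1e-08).

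Tk2, the mitochondrial thymidine kinase, read 16.4, 16.6 and 16.3 CPM in DMSO and 17.9, 19.4 and 16.9 CPM in NU7441. These groups did not overlap, yet Tk2 was not called (log2 fold change 0.14 ± 0.06, edgeR's adjusted p = 0.094, and 0.0483 with upper-quartile scaling and 0.045 without NU7441 replicate 3). Dguok, the mitochondrial deoxyguanosine kinase, had 15.2 ± 0.586 CPM under DMSO and 16.4 ± 0.880 under NU7441 (edgeR's adjusted p = 0.21). Within samples the ratio of Tk1 to Tk2 per base went from 5.75 ± 0.227 in DMSO to 2.11 ± 0.137 in NU7441 (SD, n = 3), a log2 difference of -1.44 (exact permutation test, two-sided p = 0.1, adjusted p = 0.15).

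Cad and Umps, the enzymes that build the pyrimidine ring, were among the smaller falls. Cad (mm10 chromosome 5, 31054811 to 31078479, plus strand) encodes the trifunctional protein that starts the route. It read 133, 135 and 143 CPM in DMSO and 99.7, 109 and 112 CPM in NU7441, with a log2 fold change of -0.36 ± 0.04 (edgeR's adjusted p = 1.3e-05). Umps (mm10 chromosome 16, 33955012 to 33967003, minus strand) encodes the enzyme that closes the route at uridine monophosphate, which feeds RNA as well as DNA. It read 49.98, 47.4 and 49.3 CPM in DMSO and 35.4, 35.1 and 38.2 CPM in NU7441, with a log2 fold change of -0.43 ± 0.04 (edgeR's adjusted p = 1.1e-06). The ratio of Umps to Cad per base overlapped between the groups, at 0.763 to 0.828 in DMSO and 0.707 to 0.784 in NU7441 (log2 difference -0.08, -0.11 to -0.04 leaving out each sample; exact permutation test, two-sided p = 0.3, adjusted p = 0.3).

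**Figure D2:**
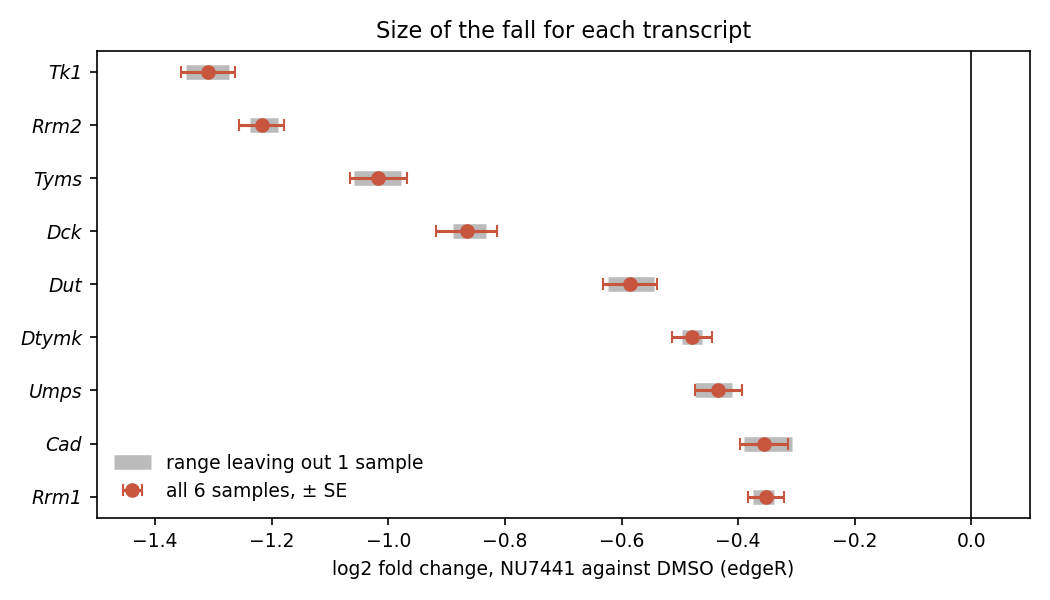
Log2 fold change of each transcript (points, with the SE as bars) and the range of the value when each sample was left out in turn (grey). The values run from -1.31 for Tk1 to -0.35 for Rrm1, and no range reaches 0.

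**Figure D3:**
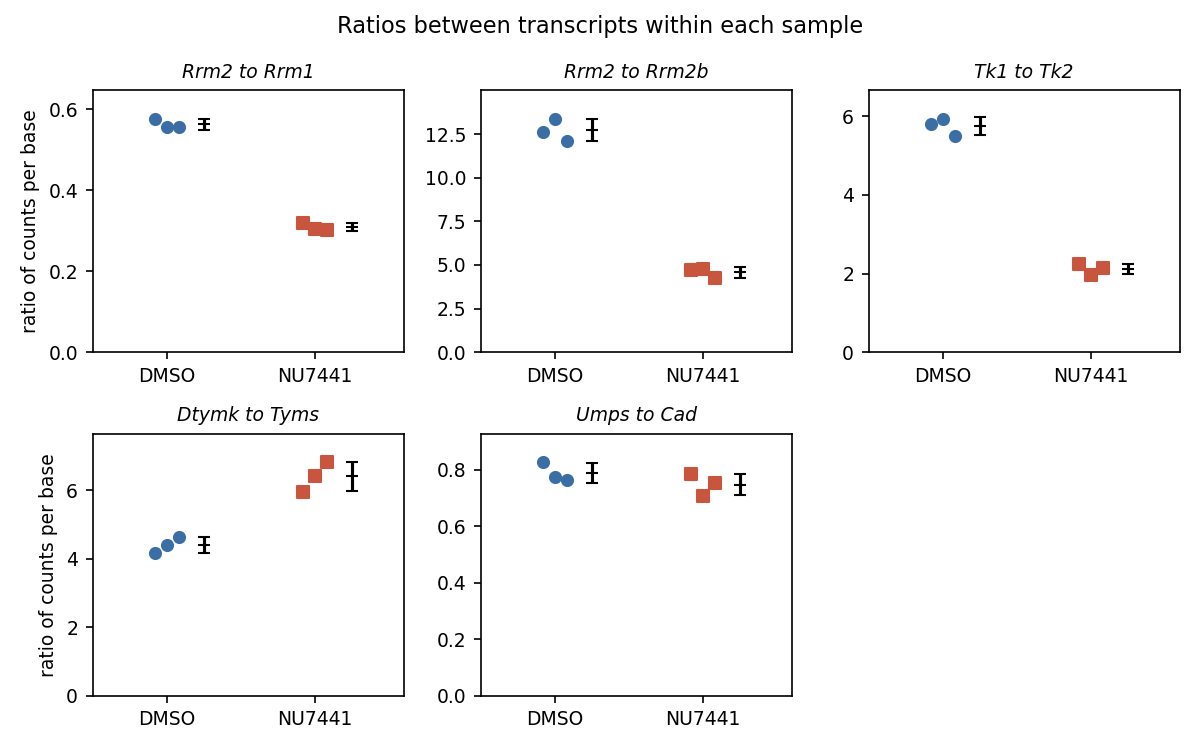
Ratios between pairs of transcripts within each sample, from counts divided by the deposited gene length, with the mean ± SD of 3 samples beside the points. The groups are apart for Rrm2 to Rrm1, Rrm2 to Rrm2b, Tk1 to Tk2 and Dtymk to Tyms, and overlap for Umps to Cad.

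The order of levels among the 9 was compared on the deposited RPKM scale, which divides by gene length. In DMSO, Rrm1 was highest at 44.8 ± 0.375 RPKM (SD, n = 3), followed by Tk1 at 29.8 ± 1.20, Dtymk at 28.5 ± 0.746, Rrm2 at 25.2 ± 0.577, Cad at 14.6 ± 0.611, Umps at 11.5 ± 0.379, Dut at 10.3 ± 0.256, Tyms at 6.48 ± 0.180 and Dck at 5.98 ± 0.174. Of these neighbours, the samples of Tk1 and Dtymk overlapped, and the other 7 pairs did not. In NU7441 the order was Rrm1 (34.3 ± 0.865), Dtymk (19.93 to 20.05), Tk1 (11.8 ± 0.761), Cad (11.2 ± 0.517), Rrm2 (10.6 ± 0.456), Umps (8.34 ± 0.363), Dut (6.69 ± 0.386), Dck (3.21 ± 0.149) and Tyms (3.14 ± 0.220). Here Tk1 overlapped Cad, Cad overlapped Rrm2, and Dck overlapped Tyms. Tk1 and Rrm2 had thus come down from above Cad to its level.

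The 9 transcripts were set beside genes of the replication fork and of mitosis, lists chosen with earlier results of these data known. Against 16.6% of all tested genes, 27 of 28 replication-fork genes were called lower (median log2 fold change -0.82), as were 20 of 20 mitosis genes (median -1.43). The exception, Gins4, named after its value was seen, was higher by 0.26 ± 0.06 (edgeR's adjusted p = 0.004) and was not called in the robust fit. The 9 genes therefore spread on both sides of the replication median and lay above that of mitosis. Relative to the summed counts of the replication-fork genes in the same sample, a comparison added after seeing the data, Tk1 fell by 0.57, Rrm2 by 0.48, Tyms by 0.28 and Dck by 0.13 on the log2 scale. By the same measure Rrm1 gained 0.39, Cad 0.38, Umps 0.30, Dtymk 0.26 and Dut 0.15. In all 9 of these ratios the groups did not overlap (exact permutation test, two-sided p = 0.1 each, the smallest possible with n = 3 per group, adjusted p = 0.1 over 9 ratios). The summed counts include Gins4, which rose from a mean of 74.4 CPM in DMSO to 89.0 in NU7441, and this lowers all 9 values. Ratios without Gins4 were not computed, so the small fall of Dck and the separation of its groups may rest on that gene. Relative to the mitosis genes, Tk1 (0.11) and Rrm2 (0.20) overlapped between groups (exact permutation test, two-sided p = 0.3, adjusted p = 0.3), while the other 7 gained between 0.40 and 1.06 without overlap (exact permutation test, two-sided p = 0.1, adjusted p = 0.129).

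**Figure D4:**
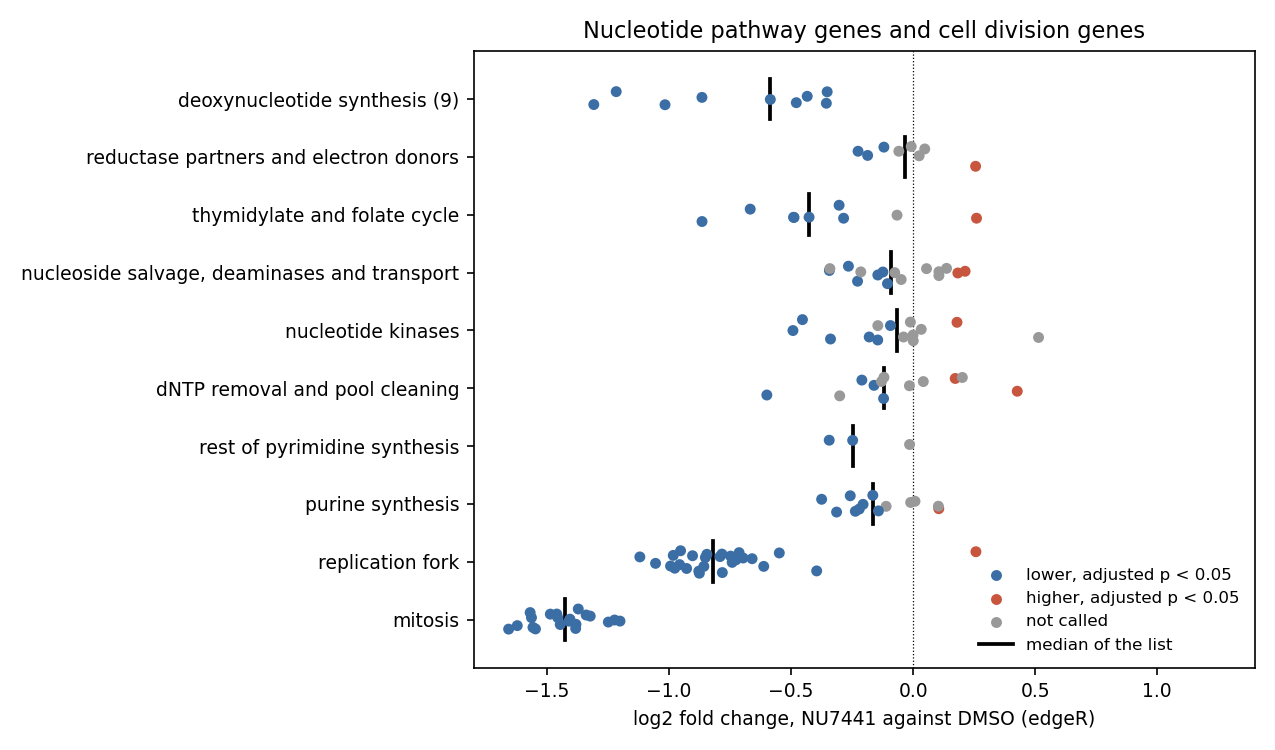
Log2 fold change of each tested gene by list (blue lower, red higher, grey not called at an adjusted p of 0.05), with the median of each list as a black bar. The 9 deoxynucleotide synthesis genes reach from values within the mitosis range (Tk1, Rrm2) to those of the less affected nucleotide genes, and the median of the thymidylate and folate list is the lowest of the other 7 nucleotide lists at -0.43.

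In 7 lists of neighbouring steps of the nucleotide pathway, also chosen with earlier results known, 36 of 75 tested genes (48%) fell and 8 (10.7%) rose. Of all tested genes 16.6% were called lower and 14.1% higher, so the share that rose was no larger than the background. The median log2 fold change was -0.12, and differences between the lists were not tested. In the folate cycle that feeds thymidylate synthase, 7 of 9 genes (77.8%) were lower and 1 (11.1%) higher. The folate enzymes Mthfd1 (-0.49 ± 0.03), Mthfd1l (-0.43 ± 0.03), Shmt2 (-0.49 ± 0.04) and Shmt1 (-0.67 ± 0.07) fell on the log2 scale (edgeR's adjusted p from 4.3e-08 to 6.4e-06).

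Among the partners of ribonucleotide reductase 3 of 8 genes (37.5%) were lower and 1 (12.5%), Rrm2b, was higher. The shares over all tested genes were 16.6% lower and 14.1% higher. Txnrd1, the cytosolic thioredoxin reductase, fell by 0.19 on the log2 scale (edgeR's adjusted p = 0.00011), and its substrate Txn1, the thioredoxin that can reduce the enzyme, had 289 ± 10.9 CPM under DMSO and 294 ± 9.09 under NU7441 (edgeR's adjusted p = 0.66). Gsr (-0.23 ± 0.06) and Txn2 (-0.12 ± 0.03) were the other 2 called lower. Without NU7441 replicate 3 both calls were lost (edgeR's adjusted p = 0.0725 and 0.0535), which left 1 gene lower. Gsr was also lost without DMSO replicate 2 (0.0784) and NU7441 replicate 2 (0.0671), and Txn2 without DMSO replicate 3 (0.0706) and with upper-quartile scaling (0.0511).

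Of 12 genes listed under deoxynucleotide removal and cleaning, 4 (33.3%) were lower and 2 (16.7%) higher, the second share being close to the 14.1% of all tested genes. Samhd1, the triphosphohydrolase that breaks deoxynucleotides down, read 129, 121 and 129 CPM in DMSO and 143, 137 and 146 CPM in NU7441, groups that did not overlap. It rose by 0.17 ± 0.03 on the log2 scale (edgeR's adjusted p = 0.0014). Nt5e, an ectonucleotidase that acts at the cell surface and not on nucleotides inside the cell, rose by 0.43 ± 0.09 (edgeR's adjusted p = 0.0015). Dctpp1, which hydrolyses deoxycytidine triphosphate and its modified forms, fell from 10.7 ± 0.366 to 7.05 ± 0.639 CPM (log2 change -0.60 ± 0.08, edgeR's adjusted p = 5.9e-05). Itpa, which clears inosine triphosphate, was also lower (-0.16 ± 0.05), a call lost without NU7441 replicate 2 (0.0876). The number lower was 2 without NU7441 replicate 3 or with upper-quartile scaling and 1 without NU7441 replicate 2.

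Of 14 nucleotide kinases 6 (42.9%) were lower and 1 (7.14%) higher, against 16.6% and 14.1% of all tested genes. Nme1, a nucleoside diphosphate kinase of the last step to the triphosphates, went from 62.6 to 45.7 CPM (log2 fold change -0.45 ± 0.04, edgeR's adjusted p = 3.8e-07). Its close paralog Nme2 could share some of its reads. The adenylate kinase Ak4 fell (-0.49 ± 0.09) and Ak5 rose (0.18 ± 0.04; edgeR's adjusted p = 0.0025). Without DMSO replicate 2 or NU7441 replicate 2 the number lower was 3, and without NU7441 replicate 2 the number higher was 2.

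Of 16 tested genes of nucleoside salvage and transport 6 (37.5%) were lower and 2 (12.5%) higher, the share higher being below the background of 14.1%. Hprt, the purine salvage enzyme (-0.27 ± 0.04), Uck2, a uridine-cytidine kinase (-0.23 ± 0.04), and Dctd, the deaminase that turns deoxycytidylate into deoxyuridylate (-0.34 ± 0.07, edgeR's adjusted p = 0.0027), fell, as did the purine salvage enzyme Aprt (-0.14 ± 0.03). Adk (-0.12 ± 0.04) and Slc29a1 (-0.11 ± 0.03) were also called lower. Both calls were lost with upper-quartile scaling (edgeR's adjusted p = 0.0915 and 0.0719), which left 4 genes lower. They were also lost without DMSO replicate 2 or 3, or NU7441 replicate 1 or 3. The Adk call was further lost without NU7441 replicate 2 (edgeR's adjusted p = 0.0629), with no filter on low counts and with the DESeq2 test. It was kept in 6 of the 14 alternatives. Uckl1 and Pnp were the 2 called higher (0.18 ± 0.06 and 0.21 ± 0.07; edgeR's adjusted p = 0.026 and 0.035). Uckl1 was not called in the absence of replicate 1 or 2 of DMSO, or of replicate 2 or 3 of NU7441 (adjusted p from 0.0682 to 0.115). Pnp was not called in the absence of replicate 2 or 3 of DMSO, or of replicate 1 or 3 of NU7441 (0.0791 to 0.172) or with library size only (0.0659). The number higher was 0 without DMSO replicate 2 and 1 in each of the other 5 fits that left out a sample. Without NU7441 replicate 3 that 1 gene was Tk2 (edgeR's adjusted p = 0.045), as Uckl1 and Pnp were both lost.

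In ring synthesis beyond Cad and Umps, Ctps, which makes cytidine triphosphate, went from 60.8 ± 0.871 to 47.9 ± 1.62 CPM (log2 fold change -0.34 ± 0.04, edgeR's adjusted p = 4.5e-06). Dhodh, the mitochondrial enzyme between Cad and Umps, fell by 0.25 ± 0.08 (edgeR's adjusted p = 0.035). Dhodh was no longer called without DMSO replicate 1 (0.0941), DMSO replicate 3 (0.139) or NU7441 replicate 2 (0.168) and with upper-quartile scaling (0.0539), and in these 4 fits 1 of 3 genes of this list was lower in place of 2. Purine synthesis had 8 of 13 genes (61.5%, against 16.6% of all tested genes) lower and 1 (7.69%, against 14.1%) higher (median log2 fold change -0.17). Pfas (-0.38 ± 0.04), Gart (-0.31 ± 0.04), Atic (-0.22 ± 0.03) and Gmps (-0.24 ± 0.04) were examples of those that fell. Paics was higher (0.10 ± 0.03, edgeR's adjusted p = 0.015), but not once DMSO replicate 2 (0.092), NU7441 replicate 1 (0.0574) or NU7441 replicate 3 (0.0708) had been left out, nor with library size only (0.0606).

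Among 22 tested regulators of such genes, a list also chosen with earlier results known, 12 (54.5%) fell, against 16.6% of all tested genes. Of the 22, 1 (4.55%) rose (median log2 fold change -0.24). The lowest adjusted p-values were those of Ccnf, whose product cyclin F marks the Rrm2 protein for destruction (-1.43 ± 0.07), and of E2f8 (-1.40 ± 0.06) and E2f7 (-1.09 ± 0.05), which encode repressors of the E2F family (edgeR's adjusted p from 6.1e-10 to 1.3e-09). Of the activators, E2f2 was low and fell from 3.09 ± 0.361 to 1.17 ± 0.208 CPM (log2 fold change -1.40 ± 0.18). E2f1 (-0.29 ± 0.04) and Myc (-0.32 ± 0.06) also fell (edgeR's adjusted p = 4.9e-05 and 0.00054), and E2f3 was not called (-0.12 ± 0.05, edgeR's adjusted p = 0.11). The 1 regulator that rose was Rbl2, which encodes the pocket protein p130 of resting cells (0.17 ± 0.04, edgeR's adjusted p = 0.004). Of the other pocket protein genes listed, Rbl1 fell by more (-0.88 ± 0.04, edgeR's adjusted p = 1.5e-09) and Rb1 was not called (-0.05 ± 0.06, edgeR's adjusted p = 0.58). E2f1, E2f2, E2f3, Myc, Rbl2, Rbl1 and Rb1 were named after their values were seen, and the part of any regulator in the falls described here was not tested.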

How the data were processed

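Per the labels' protocols, RNA of the 6 samples was made into libraries with an Illumina mRNA kit. The submitters' processing notes name bcl2fastq, TopHat2 2.0.6, HTSeq and mm10 without settings. Per the file headers, the authors' table has 23358 gene rows with their length and, for every sample, the raw count and the RPKM. Their RPKM divides the deposited count by that length and by 1 total per sample, of which gene counts fill 74.2% to 75.7%. Column names gave every sample, and 0 value columns were left unmapped.

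Deposited counts were filtered with filterByExpr (at least 10 counts in enough samples and 15 in total). TMM factors set the library sizes, and the test was edgeR 4.0.16 (R 4.3.3), quasi-likelihood, group as the only term, two-sided, Benjamini-Hochberg over all 13784 tested genes, threshold 0.05. What edgeR calls the biological coefficient of variation was 5.6%, and here it measures differences between the pools, which may be technical. The SE is the log2 fold change divided by the square root of F. Ratios were compared with exact permutation tests (scipy 1.17.1). The procedure was tested on simulated counts. Each sample counted once. Within-group sample pairs differed by 3.15 to 8.33 times the sampling variance, so they were not copies of 1 library, but this cannot show that they were independent biological replicates. Precision covers counting and sample spread, at 660 or more counts for each of the 9 genes in every sample.

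The 9 genes and all gene lists were chosen with earlier results of these data known. Named genes were the 9, set neighbours (Rrm2b, Tk2, Dguok, Samhd1, Dctd, Dhodh, Nme1, Ctps), up to 4 called genes of lowest adjusted p per list with those against its majority, and up to 3 regulators. Some genes that this rule names, and 1 of the 6 ratios, are not reported here. Shmt1, Txn1, Adk, Slc29a1, E2f1, E2f2, E2f3, Myc, Rbl2, Rbl1, Rb1 and Gins4 were added after their values were seen. In the lists, Ak6 and Dnph1 were not analysed here, and Nt5c3b was matched through its synonym Nt5c3l. Lists for adipocyte, chondrocyte and macrophage markers summed to 20.8 to 23.9, 82.2 to 93.7 and 106 to 118 CPM, mostly Cebpa, Sox9 and Ctsk. Promoter sequences are RefSeq's, of 32851 windows on GRCm38.p6.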

Additional observations from a re-analysis of the deposited data

How the results depend on the processing

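All 9 transcripts kept their direction and their call under all 14 alternatives, which were RLE, upper-quartile and no scaling beyond library size, no filter on low counts, DESeq2 1.42.0, a robust edgeR fit, counts divided by 2, each sample left out in turn, and the replicate number as a block. The largest adjusted p among them was 0.000241, for Cad without DMSO replicate 2, and the median log2 fold change of the 9 lay between -0.62 and -0.54. The count of the 75 neighbouring genes called lower was 36 in the main fit and 28 with upper-quartile scaling. It was 34 with DESeq2 or with no filter, and 37 with library size only. With 1 sample left out, the count of the 75 neighbouring genes called higher lay between 5 and 8, and that of pairs of overlapping neighbours in the DMSO order between 0 and 1. For 49 other genes, 622 of 686 values kept direction and call. These were the neighbouring genes called in the main fit, with Tk2, Dguok, Ccnf, E2f8 and E2f7. The remaining neighbouring and regulator genes were left out of that count. The cause of the lost calls was not tested.

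The labels number the samples 1 to 3 in each group without saying that a number marks a shared experiment. Same-numbered samples correlated at 0.134, 0.088 and 0.047 in their deviations from the group means over genes, and each sample correlated best with its own number, which is a hint from the data. With the replicate block 5120 genes were called, against 4231 without it, and the 9 stayed lower.

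Exact permutation tests of 3 against 3 samples cannot go below p = 0.1, so the ratios can be described but not called.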
